A study of Homo sapiens with 18 samples.

Results

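The peaks described here were found at the same place in the acRIP-seq of control cells and of cells with less NAT10. They are 1563 pairs of 1 control peak and 1 knockdown peak on 1176 genes, out of 16892 control peaks and 15813 knockdown peaks in all. A pair was taken where the exon blocks of both peaks lay on the same chromosome and strand and shared at least 50% of the spliced width of each. The gene had to have a coding transcript and a mean FPKM (an RNA level scaled by gene length and library size) that reached 1 in both RNA-seq groups, and peaks with their midpoint in the 5′ UTR were left out. The pairs were thus selected on measured peak positions and RNA levels, so the overlap and the fold enrichment are given as a description, without a test.

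All samples came from PANC-1, a human pancreatic ductal carcinoma cell line. One group carried a control vector (shCtrl) and the other an shRNA vector against NAT10 (shNAT10), each brought in by lentivirus. The labels call the control an empty shRNA vector, while the study's methods list a non-targeting shRNA. RNA-seq had 3 libraries per group. For acRIP-seq, in which fragmented RNA is precipitated with an antibody against ac4C (IP) and compared with fragments kept aside (input), there were 3 IP and 3 input libraries per group, and the deposited result was 1 pooled peak list per group. No spread between acRIP replicates can therefore be given, and the depth behind a peak is unknown. The labels say neither which shRNA sequence was used nor that the libraries came from separate cultures, so p-values measure only the spread between these libraries, which may be technical.

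N4-acetylcytidine (ac4C) is a cytidine with an acetyl group on its base, long known from tRNA and rRNA and later described in mRNA. NAT10 is the acetyltransferase that writes it in human cells, and it also acetylates rRNA of the small ribosomal subunit. In mRNA the mark has been mapped mostly to coding sequence and has been tied to mRNA stability and translation.

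NAT10 itself was listed at 31.6, 27.7 and 28.6 FPKM in the shCtrl libraries and at 7.92, 8.43 and 7.90 FPKM in the shNAT10 libraries. The groups did not overlap, and the log2 difference was -1.84 ± 0.08 (SE, adjusted p = 3.85e-05, limma). NAT10 mRNA thus remained measurable in the knockdown cells. NAT10 had 3 shCtrl peaks and 0 shNAT10 peaks, and so no pair. All 9 markers of ductal and carcinoma cells were at an FPKM of at least 1 in both groups, while among 18 markers of other cell types COL1A1 alone was. The summed FPKM of those 18 markers ran from 28.9 to 34.0 in shCtrl and from 17.4 to 21.0 in shNAT10. Without COL1A1 it was 0.0594 to 0.318 and 0.112 to 0.205, with 7 markers at 0 in all libraries, among them CD3E, INS and GCG. COL1A1, a collagen of fibroblasts, held 2 pairs, and its RNA fell by 0.69 (adjusted p = 0.00182). Library sizes recovered from the FPKM steps ran from 15831720 to 23521762 reads. The FPKM of shCtrl replicate 2 summed to 390761, against 337414 to 361185 in the other 5 libraries, so this library stood apart. Values without it are given for the ribosomal protein genes and for some named genes whose call turned on it.

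Stretches of coding sequence from the bases shared by both peaks of a pair are shown for some of the strongest coding pairs and for genes named by the study, since they are the places where the antibody enriched RNA in both conditions. Each stretch runs 5′ to 3′ on the strand of the gene and was read from GENCODE v29 transcripts on GRCh38. Capitals mark the longest run in which C recurred after every 2 bases. The unit of this repeat is C followed by any 2 bases, and the study names a motif of 2 such units (CXXCXX).
PLA2G15, chr16:68255879-68255908, plus strand: tactttCTGCAGCGGCAGCCGCAGgcctgg
EMILIN2, chr18:2891848-2891877, plus strand: gcgcagtacgCGACAGCCTgcaccttttga
DOCK10, chr2:224794944-224794973, minus strand: gcctggcaaaCTCCTACGCaagcactcctg
EDEM3, chr1:184732903-184732932, minus strand: cagtggtacaatgatgaaCTTCTCCAAatg
ABCA1, chr9:104784327-104784356, minus strand: tcttttCTACAGgatgagaaagtgaaagaa
CDC42, chr1:22086508-22086537, plus strand: cagtggtctCTCCATCTTCATttgaaaacg
JUN, chr1:58782319-58782348, minus strand: cctgtcCCCCATCGACATggagtcccagga
KDM4A, chr1:43667921-43667950, plus strand: ggagagtgaaCTGCCTCCAagagctggcaa
DHX30, chr3:47848238-47848267, plus strand: gggcgggCCGCTGCCAgtccggctttgcct
These stretches are examples, and the length of their runs does not give the range of the repeat over the pairs.

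In the control peaks that could be compared, the share with the repeat was close inside and outside the peaks. Of the 1562 held control peaks these were 655, with 328 of 882 in the coding sequence (CDS) and 327 of 430 in the 3′ UTR. The other held peaks were left out. Each of the 655 lay as 1 run within that part of the longest coding transcript. Each also had a window of the same length in the same part of that transcript, clear of every peak. Of these, 49.0% (95% Wilson interval 45.2% to 52.8%) held 4 repeats in a row on the sense strand, and of the windows 48.7% (44.9% to 52.5%) did. In CDS the shares were 55.8% (50.4% to 61.1%) in 328 peaks and 57.3% (51.9% to 62.6%) in their windows. In the 3′ UTR they were 42.2% (37.0% to 47.6%) in 327 peaks and 40.1% (34.9% to 45.5%) in their windows. The intervals overlapped in both parts. The shorter CXXCXX motif, which the study reports from HOMER, was not searched, so these shares do not check it. Control peaks on genes of the same kind that shared no base with a shNAT10 peak held the repeat in 55.5% (53.6% to 57.4%) of 2720 peaks in CDS and in 39.6% (37.7% to 41.4%) of 2758 in the 3′ UTR. Base composition differed little as well, with a median GC content of 48.3% in held CDS peaks and 50% in their windows, and of 40.9% and 40.2% in the 3′ UTR. At the 3 positions of the codon, C made up 23.6%, 23.2% and 26.7% of bases in held CDS peaks and 24.1%, 23.6% and 26.6% in the rest of the same coding sequences. Intervals of shares cover counting error only, and peaks of 1 gene share its sequence.

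About 1 peak in 10 was held, and the overlap was often partial. The held peaks made up 9.25% of the shCtrl list and 9.88% of the shNAT10 list. Among peaks that met the rule on genes and gene parts, 1562 of 12924 shCtrl peaks (12.1%) and 1563 of 12040 shNAT10 peaks (13.0%) were held. Before any threshold, 4605 pairs on 1 gene shared at least 1 base, of which 2151 reached 50% of both widths, 1689 lay on genes at the minimum FPKM in both groups, 1619 also had a coding transcript and 1563 lay outside the 5′ UTR. The median pair shared 66.8% of the wider peak. In 455 pairs the overlap was 50% to 60%, in 113 it was 90% or more, and in 77 (4.93%) both peaks had identical blocks. Just inside the threshold stood ARHGDIA, ARID4B, BAK1, BAX and CBL at 50%, and just outside stood JCAD at 49.5% and EMP1 at 49.0%.

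The share of peaks held was higher on genes of higher RNA level. Of shCtrl peaks whose gene had an FPKM of 1 to 5 (mean of both groups), 8.36% (7.21% to 9.67%) were held, and of those on genes at 100 and over, 25.8% (22.5% to 29.3%) were. Wide peaks were held more often, with 16.8% (15.4% to 18.3%) of shCtrl peaks of at least 300 bases against 9.93% (9.13% to 10.8%) of those under 200. When shCtrl peaks were split by fold enrichment into 4 classes of about equal size, 8.19% (7.29% to 9.19%) were held in the highest class and 14.7% (13.5% to 15.9%) in the lowest. Fold enrichment was lower on genes of higher RNA level, and within classes of RNA level held and control-only peaks were closer. Their median fold enrichments in shCtrl were 144 and 211 at 1 to 5 FPKM, 55.6 and 60.7 at 5 to 20, 14.4 and 14.9 at 20 to 100, and 5.5 and 4.53 at 100 and over, where held peaks had the higher median. The shNAT10 list gave the same order for each of these properties. Width enters the rule through the overlap, and RNA level enters it through the minimum FPKM, so these shares are descriptive.

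**Figure D1:**
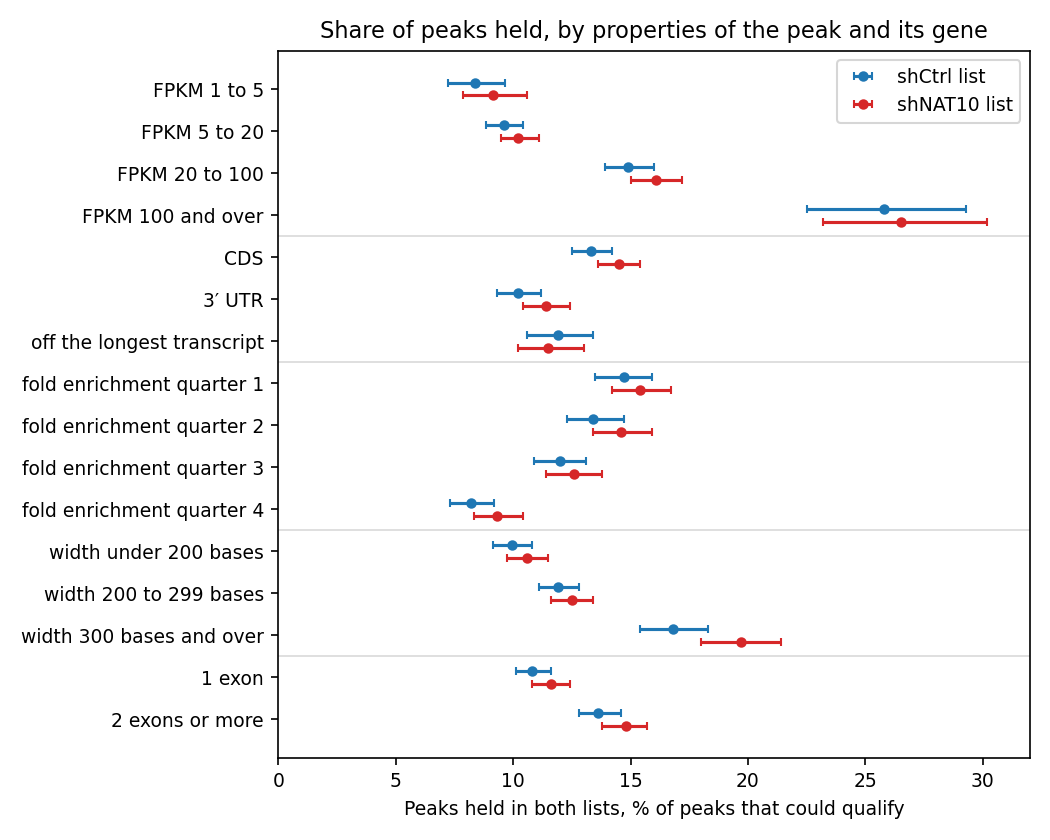
Percent of qualifying peaks held in both lists (x axis) for classes of RNA level, gene part, fold enrichment, width and exon number (y axis), with points for the shCtrl (blue) and shNAT10 (red) lists and 95% Wilson intervals as bars. The share for shCtrl peaks runs from 8.36% at an FPKM of 1 to 5 up to 25.8% at 100 and over, and down from 14.7% in the lowest to 8.19% in the highest class of fold enrichment.

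Held peaks lay more often in coding sequence than peaks found in 1 list. By the midpoint of the control peak on the longest coding transcript, 883 pairs on 761 genes lay in CDS and 430 pairs on 387 genes in the 3′ UTR. For the other 250 the midpoint was off that transcript. Of these, 90 lay in an exon of another coding transcript of the gene, 159 in exons of non-coding transcripts alone and 1 in no annotated exon. Among pairs on the transcript 67.3% (64.7% to 69.7%) were in CDS, although CDS made up 49.3% of the summed length of CDS and 3′ UTR. Control peaks that shared no base with a shNAT10 peak were in CDS in 60.6% (59.5% to 61.7%), and those that overlapped a shNAT10 peak by less than the threshold in 58.4% (56.0% to 60.9%). The order was the same within each class of RNA level. At an FPKM of 1 to 5 the CDS share was 68.5% (60.5% to 75.6%) for held and 55.4% (52.7% to 58.0%) for control-only peaks, and at 20 to 100 it was 68.3% (64.3% to 72%) and 62.2% (60.3% to 64.1%). At 5 to 20 and at 100 and over the intervals overlapped. Where pairs were sought among the 50% of peaks strongest in fold enrichment in their own list, the CDS share was 59.2% (53.5% to 64.7%). The share for control-only peaks of that strength was not computed. Within CDS the midpoints were spread along the whole frame, with quartiles at 26.5%, 51.1% and 73.2% of its length. Midpoints within 200 bases of the end of the CDS made up 15.5% (13.6% to 17.5%) of held and 12.4% (11.7% to 13.1%) of control-only peaks. Held peaks spanned 2 or more exons in 50.2% (47.7% to 52.7%) and control-only peaks in 43.0% (42.0% to 44.0%).

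The fold enrichment of IP over input, a ratio given by the authors' peak caller, was about equal in both lists over the held pairs. A pair needs a peak in both lists. The 9616 shCtrl and 8730 shNAT10 peaks on genes of the same kind that overlapped no peak of the other list do not enter. The median fold enrichment of held peaks was 24.1 in shCtrl and 22.1 in shNAT10, below the medians of 49.3 and 45.2 over the whole lists. The shNAT10 value was higher in 778 pairs, lower in 780 and equal in 5. The median log2 ratio of shNAT10 over shCtrl was 0.00, with quartiles of -1.45 and 1.23. In CDS it was -0.05 and in the 3′ UTR -0.02. Single pairs moved widely both ways, since 60.4% differed by more than 2-fold, 32.1% by more than 4-fold and 6.59% by more than 16-fold. With 1 list per group, such differences cannot be set against a spread between replicates.

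**Figure D2:**
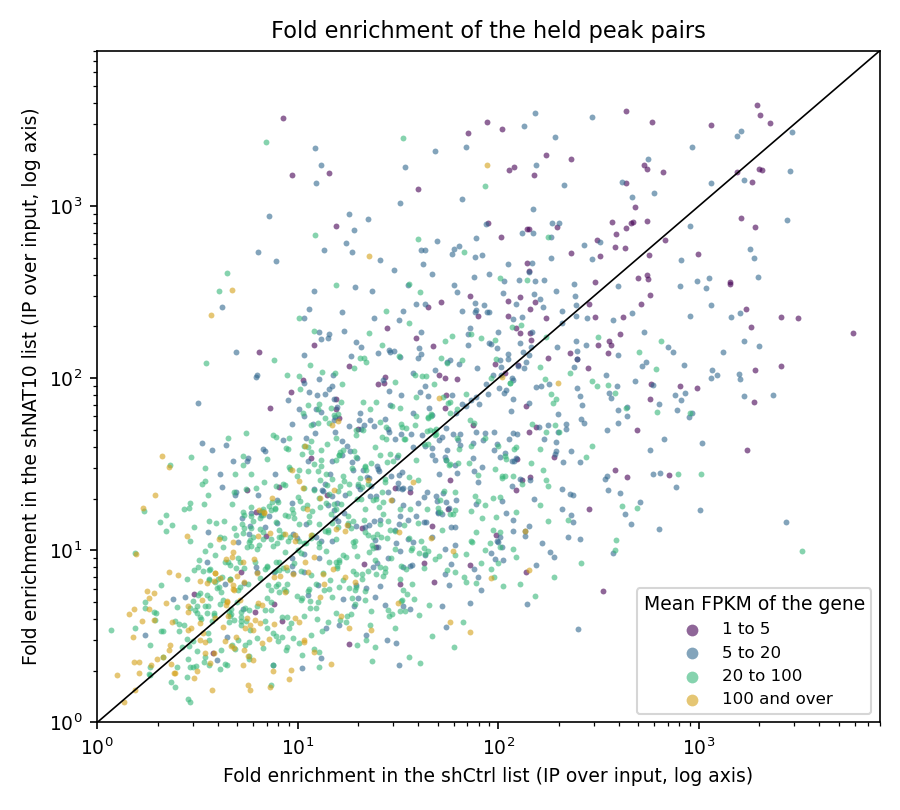
Fold enrichment (IP over input) for the 1563 pairs in the shCtrl list (x axis) and the shNAT10 list (y axis), both on log axes, with 1 point per pair coloured by the mean FPKM of its gene and a line at equal values. The points spread to both sides of the line, with 778 above and 780 below, and genes of high FPKM sit at low fold enrichment.

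Median fold enrichment differed more between RNA levels than between the conditions. On genes at 1 to 5 FPKM the median fold enrichment of held peaks was 144 in shCtrl and 176 in shNAT10, and on genes at 100 and over it was 5.5 and 5.31. Spearman's coefficient across pairs between fold enrichment and FPKM was -0.593 in shCtrl and -0.585 in shNAT10 (n = 1563). Across the same pairs the log2 fold enrichments of both lists had a Pearson's r of 0.603 and a Spearman's coefficient of 0.613. Within classes of RNA level Pearson's r was lower, at 0.493 (n = 164, FPKM 1 to 5), 0.373 (n = 552, 5 to 20), 0.464 (n = 683, 20 to 100) and 0.441 (n = 164, 100 and over). Pairs share genes, input libraries and RNA level, so these values are descriptions.

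The highest fold enrichments in CDS stood on genes of low RNA level. SGK1, a serum- and glucocorticoid-regulated kinase, had a fold enrichment of 2020 in shCtrl and 3400 in shNAT10, at chr6:134170831-134171310 in shCtrl, with 450 shared bases. Its RNA was at 3.12, 2.70 and 2.79 FPKM in shCtrl and 3.09, 3.13 and 3.34 in shNAT10, and the groups overlapped. WIPF1, which binds WASP and takes part in actin assembly, followed with 1950 and 3860. EMILIN2, an extracellular matrix glycoprotein, had 2070 and 1630, and SUN2, a protein of the inner nuclear membrane, had 2840 and 1600. PLA2G15 (a lysosomal phospholipase), DOCK10 (a guanine nucleotide exchange factor), EDEM3 (a mannosidase of endoplasmic reticulum quality control), MMP14 (a membrane-bound metalloproteinase), ABCA1 (a cholesterol exporter) and ARHGDIB (a GDP dissociation inhibitor of small GTPases) completed the 10, with a lower value of 663 to 1550 for their 2 peaks. In EDEM3 both peaks had identical blocks of 180 bases, with 1150 in shCtrl and 1370 in shNAT10. The RNA of EMILIN2 fell (log2 difference -0.83 ± 0.15 SE, adjusted p = 0.0048, limma) and that of EDEM3 fell (-0.81 ± 0.24, adjusted p = 0.0338). The call of EDEM3 was lost without any 1 of 5 libraries, all but shCtrl replicate 2, with adjusted p-values of 0.0605 to 0.104. SUN2 shares exon bases with another gene and is left out for RNA, and the remaining genes of the 10 did not pass the test. Some of these passed limma when 1 library was left out. ABCA1 did so without shCtrl replicate 2 (-0.68, adjusted p = 0.00412). PLA2G15 passed without shCtrl replicate 1 (-0.48, adjusted p = 0.0163), and ARHGDIB without shCtrl replicate 3 (-0.50, adjusted p = 0.0187).

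In the 3′ UTR the strongest pair was again on MMP14, with 2280 in shCtrl and 3060 in shNAT10 over 2727 shared bases in 7 blocks. MMP14 held 3 pairs at an RNA level of 1.84 ± 0.339 FPKM in shCtrl and 2.01 ± 0.121 in shNAT10 (SD, n = 3), and the groups overlapped. MLKL, the executor of necroptosis, had 2010 and 1650 at chr16:74671915-74672125, and its RNA fell from 3.38 ± 0.12 to 1.16 ± 0.107 FPKM (SD, n = 3; log2 difference -1.47, adjusted p = 0.000274, limma). NREP had 1630 and 2720, while its RNA rose from 4.20 ± 0.27 to 9.95 ± 0.367 FPKM (log2 difference 1.23, adjusted p = 0.000112, limma). The pairs on MLKL and NREP stayed within 2-fold in fold enrichment while the RNA of their genes moved in opposite directions. Ranking by the lower of both values favours pairs that are high in both lists, so this likeness is partly set by the ranking. Over the 10 pairs of this list the log2 ratio of shNAT10 over shCtrl ran from -1.73 to 1.25. The zinc finger genes ZNF37A and ZNF740 had 1550 and 1590, and 1680 and 1410. SDC2 (a heparan sulfate proteoglycan), TNFRSF1B (a TNF receptor), CHST11 (a chondroitin sulfotransferase), ANKH (a pyrophosphate transporter) and KCNAB2 (a potassium channel subunit) completed the list, with the lower of both values between 602 and 929. Besides NREP, the RNA of SDC2 (0.28, adjusted p = 0.023) and ANKH (0.37, adjusted p = 0.0407) rose, and besides MLKL, that of CHST11 (-0.64, adjusted p = 0.00521) and KCNAB2 (-0.53, adjusted p = 0.00154) fell. MMP14 and ZNF740 did not pass, and ZNF37A and TNFRSF1B, which share exon bases with other genes, are left out for RNA. The call of SDC2 was lost without shCtrl replicate 3 or any 1 shNAT10 library (adjusted p = 0.0516 to 0.0967), and that of ANKH without any 1 library but shCtrl replicate 1 (0.0621 to 0.124).

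Most genes held 1 pair. There were 899 genes with 1 pair, 199 with 2, 56 with 3, 13 with 4, 8 with 5 and 1 with 6. The 6 pairs lay on APLP2, which encodes a relative of the amyloid precursor protein. Its fold enrichments in shCtrl were 7.55, 4.49, 1.55, 4.78, 14.6 and 5.41 from 5′ to 3′, and in shNAT10 they were 1.99, 4.15, 1.55, 11.2, 2.19 and 2.63. Of the 6 APLP2 pairs 1 was higher in shNAT10, 4 were lower and 1 was equal. APLP2 RNA was high, at 339, 317 and 332 FPKM in shCtrl and 413, 410 and 411 in shNAT10, and rose by 0.32 ± 0.06 on the log2 scale (adjusted p = 0.00519). The same mixture was seen in ALCAM, a cell adhesion molecule, whose 5 pairs ran from 10.7 to 92.5 in shCtrl and from 7.79 to 175 in shNAT10. In ASAH1 (acid ceramidase) and ATP6AP2 (a subunit associated with the vacuolar proton pump), 5 pairs each also included pairs that were higher and pairs that were lower in shNAT10. The RNA of ALCAM, ASAH1 and ATP6AP2 did not pass the test. A few of the other genes among the 13 with 4 pairs and the 8 with 5 were picked after their values were seen, because all their pairs moved one way. They are examples. Whether such genes were more common than even odds would give was not tested, and pairs on 1 gene share its RNA level. All 5 pairs of MCL1, a survival factor of the BCL2 family, were higher in shNAT10, with log2 ratios of 0.53 to 2.55. MCL1 RNA had a log2 difference of -0.99, and the part of RNA in these ratios was not tested. All 4 pairs of ATP13A3, a transport ATPase, were higher (0.47 to 2.62), as were all 4 of GSN, the actin-severing protein gelsolin (0.56 to 2.63). All 4 pairs of IGF2R, the mannose 6-phosphate receptor, were lower, with log2 ratios of -2.84 to -0.29.

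The widest moves of fold enrichment reached more than 50-fold in both directions. The 3′ UTR pair of ZCCHC9, a zinc finger gene, went from 8.41 in shCtrl to 3270 in shNAT10. SH3BGRL went from 6.95 to 2350, SLC1A4 (a neutral amino acid transporter) from 12.2 to 2180, RGS2 (a regulator of G protein signaling) from 9.33 to 1510, and E2F5 (a transcription factor of the cell cycle) from 13.0 to 1730. In the other direction, DENR, a translation re-initiation factor, went from 3290 to 9.89. SELENOK (a selenoprotein of the endoplasmic reticulum) went from 2730 to 14.6, LRP12 (a receptor of the LDL receptor family) from 1010 to 17.2, and CCDC28A from 335 to 5.80. These pairs are among the extremes of 1563 and were named for their size. DENR RNA was at 15.0, 15.7 and 15.8 FPKM in shCtrl and at 28.1, 29.2 and 29.2 in shNAT10, a rise of 0.89 ± 0.06 on the log2 scale (adjusted p = 0.000135). E2F5 RNA fell (-0.77 ± 0.10, adjusted p = 0.00114). LRP12 rose by 0.50 (adjusted p = 0.0435), a call lost without shCtrl replicate 3 or any 1 shNAT10 library (0.0704 to 0.122). CCDC28A had a log2 difference of -0.43 (adjusted p = 0.045), a call lost without any 1 library but shCtrl replicate 1 (0.0682 to 0.143). ZCCHC9, SH3BGRL, SLC1A4, RGS2 and SELENOK did not pass.

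The RNA of the genes that hold a pair was examined next, since RNA-seq levels between groups were not used to select them beyond the minimum FPKM. All 1176 genes entered the limma fit of 12982 genes. Of these, 293 (24.9%) were higher and 275 (23.4%) lower in shNAT10 at an adjusted p-value under 0.05, against 20.8% higher and 21.2% lower over all genes tested. Over the 10678 coding genes that met the same minimum FPKM the shares were 22.0% and 22.5%. With a log2 difference beyond 1 as well, 32 genes (2.72%) were higher and 37 (3.15%) lower, against 2.91% and 3.57% over all genes and 2.39% and 2.86% over the coding genes. These shares lay near the background. The median log2 difference was -0.009 over the genes with a pair and -0.011 over all genes tested, with quartiles of -0.284 and 0.30 for the former. When FPKM was rescaled to TPM the split moved to 357 higher and 220 lower and the median to 0.098, as it did over all genes (0.097). Genes with a pair in CDS were higher in 184 and lower in 180 of 761 cases, and genes with a pair in the 3′ UTR were higher in 110 and lower in 88 of 387. At 100 FPKM and over, 20 of 104 genes with a pair were higher and 34 lower, and of 336 other coding genes at that level 56 were higher and 88 lower.

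Among the genes with a pair, the largest rise was that of SETD7, a lysine methyltransferase, which was at 4.74, 2.42 and 3.98 FPKM in shCtrl and at 21.0, 21.1 and 22.6 in shNAT10. The log2 difference was 2.56 ± 0.22 (SE, adjusted p = 0.000281), and the groups were far apart although shCtrl replicate 2 was low. SETD7 held 2 pairs in the 3′ UTR, with fold enrichments of 123 in shCtrl and 34.4 in shNAT10, and of 3.96 and 2.30. PRMT6 (an arginine methyltransferase), TPM4 (a tropomyosin), RAPGEF1 (a Rap1 activator that binds Crk) and ZSCAN29 (a zinc finger gene) rose by 1.99, 1.95, 1.69 and 1.53. TPM4 RNA went from 25.6, 26.1 and 26.3 FPKM to 96.9, 103 and 103.

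The largest fall was that of PTGES, the inducible prostaglandin E synthase, from 10.1, 11.1 and 9.44 FPKM in shCtrl to 1.15, 1.46 and 1.30 in shNAT10 (log2 difference -2.88 ± 0.12, adjusted p = 3.84e-05). Its pair had 573 in shCtrl and 38.3 in shNAT10. IFIT2, an interferon-induced gene, had a log2 difference of -2.58, GM2A (the activator of ganglioside breakdown) of -2.56, SPCS3 (a signal peptidase subunit) of -1.99 and PSMB2 (a proteasome subunit) of -1.88. Of the exon bases of IFIT2, 8.68% are shared with another gene on the same strand. The fold enrichment on SPCS3 went from 19.0 to 731 and that on PSMB2 from 1.73 to 5.02. The rule for pairs required a peak in the shNAT10 list, so its presence on these genes is no result. The 6 libraries of these 10 genes fell into groups that did not overlap, which the rule for naming them required.

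**Figure D3:**
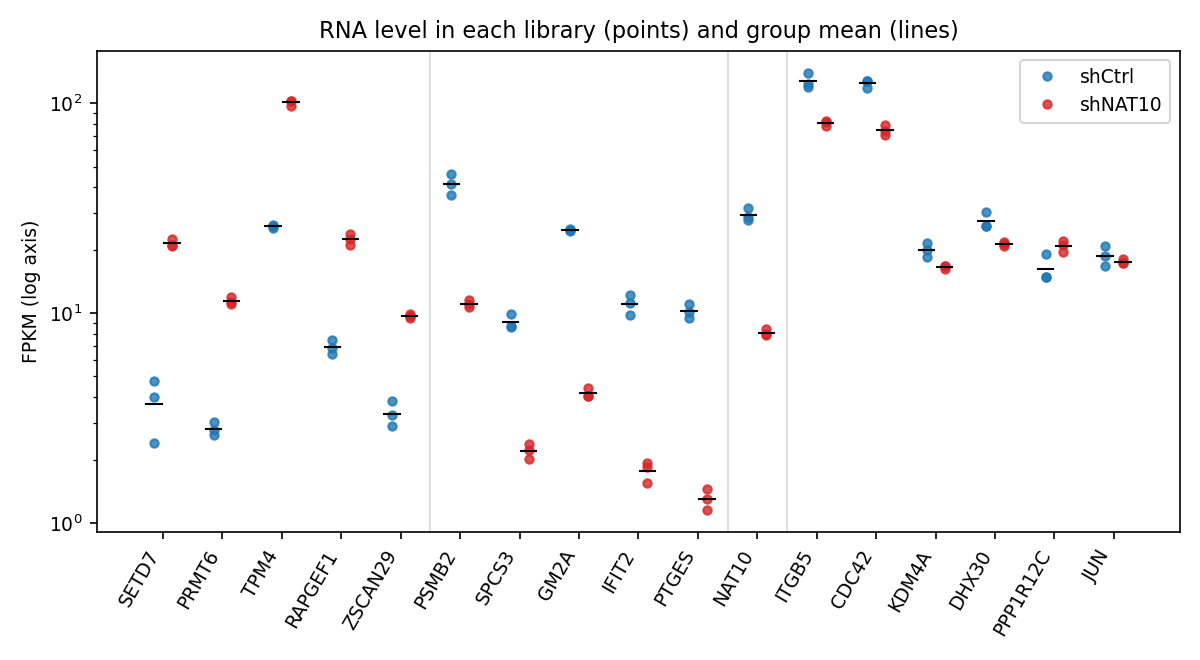
FPKM (y axis, log axis) of 17 genes in the 3 shCtrl (blue) and 3 shNAT10 (red) libraries, with points for libraries and lines for group means. From left to right stand the 5 largest rises and 5 largest falls among genes with a pair, NAT10, and the 6 genes named by the study that hold a pair, of which JUN alone has groups that overlap.

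Fold enrichment and RNA of the gene moved weakly in opposite directions. Across the 1563 pairs, the log2 ratio of fold enrichment and the log2 difference in RNA had a Pearson's r of -0.175 and a Spearman's coefficient of -0.172. Pairs on 1 gene share its RNA value. Among 400 pairs on genes with higher RNA in shNAT10, 157 (39.2%) had a higher fold enrichment in shNAT10 and the median log2 ratio was -0.41. Among 365 pairs on genes with lower RNA, 213 (58.4%) were higher and the median was 0.25. Among 798 pairs on genes not called, 408 (51.1%) were higher and the median was 0.10. The ranges between quartiles of all 3 classes overlapped, and that of the pairs on genes with lower RNA ran from -0.92 to 1.56. Since fold enrichment is a ratio to input RNA, it is no measure of ac4C free of the RNA level, and the part of RNA in these ratios was not tested.

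**Figure D4:**
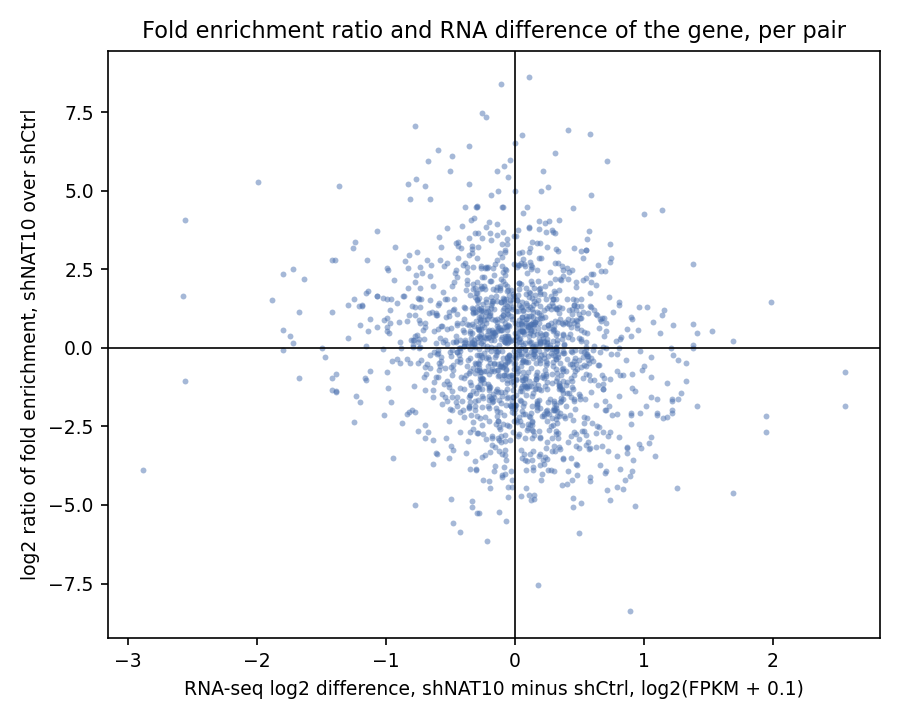
Log2 ratio of fold enrichment, shNAT10 over shCtrl (y axis), against the log2 difference in RNA of the gene, shNAT10 minus shCtrl (x axis), with 1 point for each of the 1563 pairs and lines at 0. The cloud is wide in both directions, and Pearson's r is -0.175.

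Among the 10 gene lists by function, cytosolic ribosomal proteins and translation factors had the highest shares of genes with a pair. The lists differ in RNA level, and the ranking was not tested. Of 79 genes for cytosolic ribosomal proteins 42 (53.2%) held a pair, and of 47 expressed translation factors 17 (36.2%) did. Over all coding genes at the minimum FPKM the share was 11%, and it was higher at higher levels, from 4.49% at 1 to 5 FPKM through 9.29% and 19.3% to 23.6% at 100 and over. Of the ribosomal protein genes, 53 reached a mean of 100 FPKM. The 42 genes held 67 pairs, of which 39 lay in CDS, 0 in the 3′ UTR and the rest off the longest coding transcript. By the lower value of both peaks, the strongest pairs were those of RPSA (198 in shCtrl and 93.3 in shNAT10), RPL18 (292 and 40.4), RPS15A (108 and 36.6) and RPL6 (37.4 and 25.1). Ribosomal protein genes have many near-identical pseudogenes, so their reads and peaks are uncertain. The RNA of 19 of the 42 was lower and of 0 higher, with a median log2 difference of -0.34, and the same held for 32 and 0 of all 79 genes on the list. The shares over all genes tested were 21.2% lower and 20.8% higher. The count of 19 among the 42 moved with single libraries, with 34 lower without shCtrl replicate 1, 21 without shCtrl replicate 2, 6 without shCtrl replicate 3, and 5, 7 and 4 without shNAT10 replicates 1, 2 and 3. In these fits 13.6% to 25.6% of all genes tested were lower. The median of the 42 was -0.22 without shCtrl replicate 2 and -0.44 to -0.32 without any other library. RPL18 was at 60.5, 95.8 and 67.6 FPKM in shCtrl and at 47.2, 46.6 and 42.2 in shNAT10, with the highest value in shCtrl replicate 2.

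Among translation factors the pairs with the highest lower value were on EIF5 (117 in shCtrl and 198 in shNAT10), EIF4G3 (57.2 and 31.7), ETF1 (22.9 and 66.6) and EIF2S3 (14 and 41.3). EIF5 promotes start codon recognition, EIF4G3 is a scaffold of cap binding, ETF1 is the release factor and EIF2S3 a subunit that delivers initiator tRNA. Of the 17 genes 6 were higher and 2 lower in RNA, while over the whole list 11 were higher and 12 lower of 47 (beside 20.8% and 21.2% over all genes tested). ETF1 was among the higher (0.45 ± 0.06, adjusted p = 0.00102). Of 45 expressed splicing factors 13 (28.9%) held a pair, with 2 higher and 4 lower in RNA (8 and 11 of 45 over the list). HNRNPUL1 held 3 pairs, the strongest with 187 in shCtrl and 71.4 in shNAT10, and its RNA fell from 81.3, 79.2 and 79.5 FPKM to 30.6, 30.7 and 30.4 (log2 difference -1.39 ± 0.06, adjusted p = 3.84e-05). HNRNPA3 rose (0.48 ± 0.06, adjusted p = 0.00143), while HNRNPH1 and HNRNPU did not pass. Of 37 ribosome biogenesis factors 2 (5.41%) held a pair, BOP1 and PES1, neither called in RNA. This share was not tested against the 11% of all coding genes.

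Of 72 expressed genes of focal adhesion and integrin signaling, 21 (29.2%) held 36 pairs. Fold enrichment was higher in shNAT10 in 22 of the 36, with a median log2 ratio of 0.32, beside 49.8% and 0.00 over all 1563 pairs. The strongest pairs lay on PIK3R1, a regulatory subunit of PI3 kinase (231 in shCtrl and 1890 in shNAT10), TLN2, a talin (280 and 115), COL4A2, a basement membrane collagen (113 and 1630), and ITGB4, the integrin beta 4 chain (90.1 and 244). Of the 21 genes 3 were higher and 9 lower in RNA, with a median log2 difference of -0.17. Of the 74 listed genes tested 15 were higher and 20 lower, with a median of -0.05. The shares over all genes tested were 20.8% higher and 21.2% lower, and the list was not tested against them. TLN2 fell from 3.75, 2.59 and 3.08 FPKM to 1.55, 1.42 and 1.60 (log2 difference -0.98 ± 0.16, adjusted p = 0.0031), while PIK3R1, COL4A2 and ITGB4 did not pass.

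The 15 genes the study names were chosen by it in part on these samples, so their direction is not independent evidence. A pair was held on 6 of the 14 at the minimum FPKM (42.9%), CDC42, ITGB5, JUN, KDM4A, DHX30 and PPP1R12C. ITGB5, the integrin beta 5 chain, had 3 shCtrl peaks and 7 shNAT10 peaks, which made 2 pairs. The pair in the 3′ UTR had 4.25 in shCtrl and 3.59 in shNAT10, at chr3:124763327-124763567 in shCtrl, and the pair off the longest coding transcript had 6.11 and 3.94. Both ITGB5 pairs had low values for the whole lists, and the values within each differed by less than 2-fold. By its mean FPKM ITGB5 fell in the class at 100 and over. The median of held peaks in that class was 5.5 in shCtrl and 5.31 in shNAT10. ITGB5 RNA was at 119, 140 and 123 FPKM in shCtrl and at 82.6, 81.2 and 77.8 in shNAT10, a log2 difference of -0.66 ± 0.08 (adjusted p = 0.000902). CDC42, a small GTPase of the actin cytoskeleton, held 3 pairs with 4.26 and 5.13 in CDS, and 1.17 and 3.45, and 2.51 and 4.68, in the 3′ UTR. Its RNA fell from 118, 128 and 128 FPKM to 70.5, 74.0 and 79.2 (-0.74 ± 0.07, adjusted p = 0.00042), but 57.12% of its exon bases are shared with another gene on the same strand.

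JUN, a subunit of AP-1, had 13.0 and 168 and did not pass in RNA (-0.09 ± 0.09, adjusted p = 0.463). DHX30, an RNA helicase, had 40.9 and 319, and PPP1R12C, a regulatory subunit of myosin phosphatase, had 14.9 and 90.5. KDM4A, a histone demethylase, had 44.0 and 21.8. DHX30 fell (-0.36 ± 0.08, adjusted p = 0.0124), KDM4A fell (-0.26 ± 0.07, adjusted p = 0.0273) and PPP1R12C rose (0.36 ± 0.12, adjusted p = 0.0409). The call of DHX30 was lost without shNAT10 replicate 2 or 3 (adjusted p = 0.0515 and 0.0546), and the calls of KDM4A and PPP1R12C were lost without any 1 library but shCtrl replicate 2 (0.0559 to 0.103 and 0.0726 to 0.132). With TPM the adjusted p of KDM4A was 0.257, and 40.16% of the exon bases of KDM4A are shared with another gene. Fold enrichment was thus higher in shNAT10 for CDC42, JUN, DHX30 and PPP1R12C and lower for ITGB5 and KDM4A. The other 9 genes held no pair. BCAR1, CDH1, DIAPH1 and MMP9 had peaks in both lists (MMP9 below the minimum FPKM), MBD4, NAT10, PTK2 and PXN in the shCtrl list alone, and SRC in neither.

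**Figure D5:**
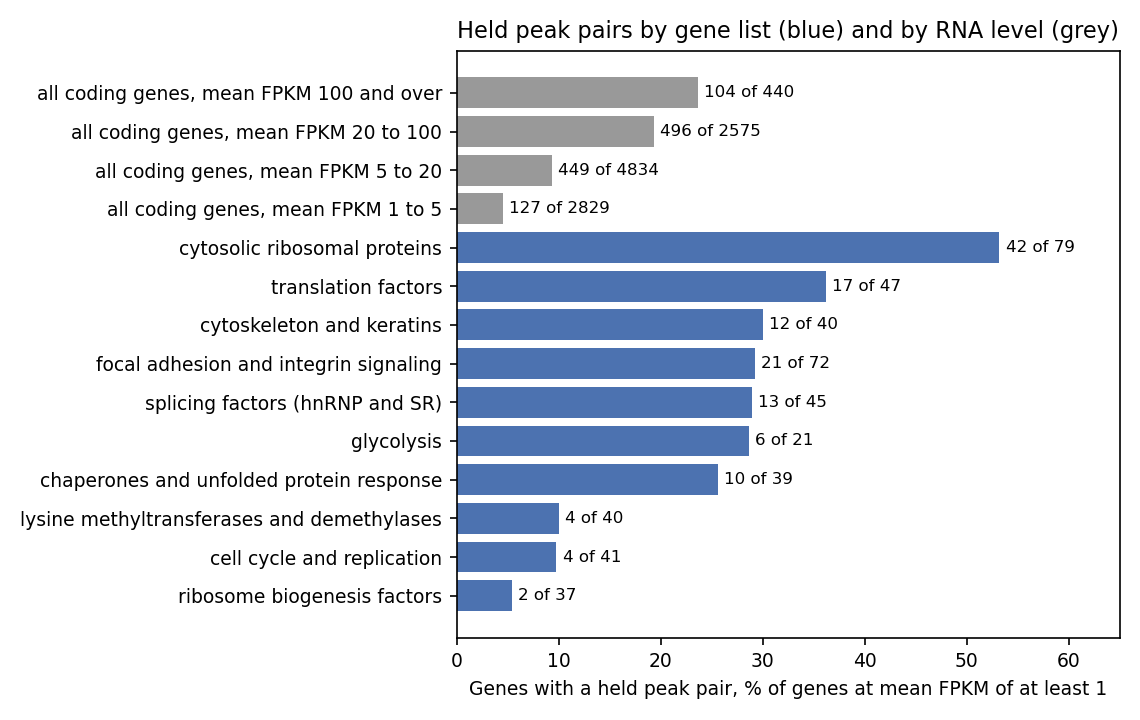
Percent of expressed genes with a held pair (x axis) for 10 gene lists (blue bars) and for all coding genes in 4 classes of mean FPKM (grey bars), with counts beside the bars. Cytosolic ribosomal proteins stand at 53.2% and ribosome biogenesis factors at 5.41%, beside 4.49% to 23.6% of all coding genes by class of FPKM.

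Pairs were also held on 12 of 40 cytoskeleton and keratin genes, 10 of 39 chaperones and genes of the unfolded protein response, and 6 of 21 glycolysis genes. TPM4 led the cytoskeleton genes with 432 in shCtrl and 67.1 in shNAT10. KRT7, a keratin of ductal epithelium, was the sole ductal marker with a pair (22.5 and 839), and its RNA fell from 6.93, 10.7 and 8.24 FPKM to 5.19, 4.52 and 4.55 (-0.83 ± 0.16, adjusted p = 0.00609). MSN (a linker of membrane and actin) and ANXA1 (an annexin) rose by 0.48 and 0.38. Among the 12 genes 4 were higher and 4 lower, and over the whole list 12 and 12 of 40 were. For this and the next 2 lists, the shares over all genes tested were 20.8% higher and 21.2% lower. Of the 10 chaperone genes 4 were higher and 0 lower, with HSP90AA1 at 228, 210 and 227 FPKM in shCtrl and 367, 382 and 400 in shNAT10 (0.79 ± 0.07, adjusted p = 0.000264). Over the whole chaperone list 13 of 39 were higher and 3 lower. Of the 6 glycolysis genes 3 were higher and 1 lower, while over the whole list 6 were higher and 6 lower of 21, with a median log2 difference of -0.10. PFKL, the liver form of phosphofructokinase, rose by 0.91 ± 0.07 (adjusted p = 0.000208), with fold enrichments of 63.4 in shCtrl and 121 in shNAT10.

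Of the listed cell cycle genes 4 of 41 (9.76%) held a pair, and of the listed histone methylation enzymes 4 of 40 (10%), beside 11% of all coding genes. SETD7, named above with 2 pairs, is not on the list of methylation enzymes and does not enter its counts. In RNA, 2 of the 4 cell cycle genes were higher and 1 lower (18 and 6 of 41 over the list), and 2 of the 4 methylation enzymes were higher and 2 lower (13 and 4 of 40). The shares over all genes tested were 20.8% higher and 21.2% lower. CDKN1A, the p21 inhibitor of cyclin-dependent kinases, held a 3′ UTR pair (55.4 and 122) and a CDS pair (11.2 and 5.80), and its RNA fell from 43.4, 50.3 and 46.2 FPKM to 13.8, 14.6 and 15.2 (-1.67 ± 0.08, adjusted p = 5.03e-05). CDK6, a kinase of the G1 phase, held a 3′ UTR pair with nearly equal values (68.7 and 69.2), and its RNA rose by 1.21 ± 0.23 (adjusted p = 0.00606). RB1, the retinoblastoma protein, did not pass, and MCM4, a subunit of the replicative helicase, rose by 0.33. In limma RB1 passed without shCtrl replicate 1 (0.53, adjusted p = 0.0338) or shCtrl replicate 2 (0.23, adjusted p = 0.00907). DOT1L, a lysine methyltransferase of histone H3, held 3 pairs, the strongest with 1610 and 241, and rose by 0.48 ± 0.07 (adjusted p = 0.00228). KDM2A rose by 1.18 ± 0.08 (adjusted p = 0.000142) at 8.81 and 4.08, and KDM1A at 5.0 and 5.04 fell by 0.19 (adjusted p = 0.0387), a call lost without shCtrl replicate 3 or any 1 shNAT10 library (0.11 to 0.137) and with TPM (0.257).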

How the data were processed

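RNA-seq values are FPKM per gene and library as deposited by the authors, whose processing notes name HISAT2 2, HTSeq 0.11.0, DESeq2 1.22.2 and the build hg38 (GRCh38). The peak lists hold the fold enrichment of IP over input, a ratio, and a log-scale p-value treated as a score, both as deposited by the authors from pooled libraries. The peak caller is not given in the sources used here. Peaks were placed on GENCODE v29. No column of the tables was left unmatched to a sample. The acRIP lists give no counts, so no depth or replicate error was available for them.

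Genes that reached an FPKM of 1 in 3 or more libraries were tested with limma 3.58.1 (R 4.3.3) on log2(FPKM + 0.1), with a mean-variance trend, two-sided, and Benjamini-Hochberg adjustment over 12982 genes. Fold changes on this scale understate the change of low genes. Differences are shNAT10 minus shCtrl. Of the FPKM values, 97.25% to 97.35% per library lay within 0.05 of a whole number of reads, once each gene was given the length of its longest transcript, and voom on these reads called 2819 genes higher and 2845 lower, against 2699 and 2751. Shares carry 95% Wilson intervals. Python 3.11.15, NumPy 2.4.6, pandas 2.3.3, SciPy 1.17.1 and matplotlib 3.10.9 were used, and the limma fit was tested on simulated data.

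Named genes were the 10 CDS and 10 3′ UTR pairs with the highest lower fold enrichment (1 per gene), the 5 genes with the most pairs, the 5 largest rises and falls of fold enrichment, the 5 largest rises and falls in RNA among called genes whose groups do not overlap, the genes the study names, and up to 4 examples per list. RNA values of genes in the first set that share exon bases with another gene were passed over. Those given for other sets include genes that share such bases, among them CDC42, KDM4A and IFIT2. The pairs and the gene lists were chosen with earlier results of these data known. Replicate numbers were not used to pair the libraries in the main fit (see the paired fit among the alternatives). Sequences of pairs that do not form 1 run of the longest transcript are not shown. A few items that the rule named are not reported here.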

Additional observations from a re-analysis of the deposited data

How the results depend on the processing

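Other overlap thresholds changed the number of pairs from 1563 to 2356 (at least 30%) and 381 (at least 80%). Keeping the 50% of peaks strongest in fold enrichment in each list gave 351, and keeping the 50% with the lowest p-values gave 627. Under these 4 settings the CDS share went from 67.3% to 63.8%, 72.4%, 59.2% and 59.6%. The share of pairs with a higher fold enrichment in shNAT10 was 46.5% at 80% overlap and 48.7% to 51.4% under the other settings, beside 49.8%. With 3 repeats in place of 4 the repeat was found in 80.9% of the 655 held control peaks compared and 82.3% of windows, and with 5 in 25.6% and 24.3%. A minimum FPKM of 5, the transcript with the longest CDS and mutually best pairs gave 1350, 1572 and 1562 pairs.

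With the smaller set of host genes (genes with a pair) at 80% overlap, 81 of 341 were higher (23.8%) and 88 lower (25.8%). Over all genes tested the shares were 20.8% and 21.2%. Beyond a log2 difference of 1 there were 12 higher (3.52%) and 18 lower (5.28%), beside 2.91% and 3.57% of all genes. Rescaling to TPM moved the median log2 difference of host genes to 0.098. Leaving out each library gave 196 to 359 host genes higher (16.7% to 30.5%) and 190 to 349 lower (16.2% to 29.7%). Over all genes tested these shares moved as well, from 13.7% to 25.4% higher and from 13.6% to 25.6% lower. Beyond 1 there were 27 to 40 host genes higher and 37 to 40 lower. The shares over all genes were 2.67% to 3.74% and 3.4% to 3.98%. The medians of host genes were -0.013 to 0.001. The replicate number as a block gave 280 host genes higher and 263 lower, beside 19.4% and 20.1% of all genes. Same-numbered libraries had correlations of -0.0432, 0.0643 and 0.107, and differently numbered ones of -0.122 to 0.0632. With 3 libraries per group such values cannot decide whether the numbers pair them. Lower ribosomal protein host genes numbered 7 with no filter and 12 with no trend, beside 7.85% and 20.3% of all genes. The 2 alternatives chosen after seeing the data were voom on recovered reads (309 higher, 286 lower) and a spline correction for transcript length (318 and 320). Over all genes the shares were 21.8% higher and 22.0% lower with voom, and 23.7% and 23.3% with the correction. Of 94 named genes tested, 14 lost their call and 10 gained one in at least 1 alternative, and 0 called genes changed sign. The causes were not tested. Pooled lists without counts limit every statement on single peaks.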
